A study of Rattus norvegicus with 21 samples.

Results

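The genes described here are the cell cycle and DNA replication genes of a fixed list of 42 symbols, which covers the licensing of replication origins, the replication fork, nucleotide supply, cyclins, the spindle checkpoint, spindle and kinetochore proteins, and chromosome structure. Probe sets that name a single gene gave a value for 39 of the 42, and Cdc6, Rrm2 and Tpx2 were not matched. A gene with several probe sets was represented by the one of highest average level across the 21 arrays. The gene table held 14218 genes in all, so these are 39 of 14218.

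Transcript levels come from Affymetrix rat arrays of 21 tissue pieces, taken from 9 male young adult Fischer 344 rats. Every rat carried BDEneu tumours, a model of intrahepatic cholangiocarcinoma, which is bile duct cancer; BDEneu cells are rat bile duct cells transformed with an activated neu (Erbb2) oncogene. Tumour and the normal right lobe of the liver come from rats 1 to 3 at day 10 after inoculation, from rats 4 to 6 at day 15 and from rats 7 to 9 at day 25. A peritoneal metastasis was taken from each of rats 7 to 9 as well. This gave 7 groups of 3 arrays. Replicates were different rats, and the liver came from the tumour-bearing animals themselves, with no liver of an uninoculated rat among the samples used here. The descriptions of the day 25 livers name day 55, whereas their titles name day 25, and day 25 was used.

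Cells copy their DNA in S phase and divide in mitosis. Before S phase the Mcm2 to Mcm7 proteins are loaded onto origins with the help of Cdt1; D-type and E-type cyclins drive entry into S phase, and Cdk1 with A-type and B-type cyclins drives entry into mitosis. Transcripts for replication rise toward S phase under E2F factors, and those for mitosis rise in G2 under complexes that hold MuvB proteins, B-Myb and Foxm1. Most hepatocytes of an adult liver rest outside the cycle, and the liver can re-enter it after injury.

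The deposited values are log2 levels from robust multi-array averaging (RMA), and a difference of 1 is a change of 2-fold. Array medians lay between 5.98 and 6.06, the values ran from 3.16 to 14.62, and the number of arrays limits the precision. Of the pieces, tumours and metastases held biliary epithelium transcripts at a mean level of 11.37 to 12.09 over 7 markers against 5.54 to 7.72 in the livers. The 16 hepatocyte markers averaged 12.04 to 12.83 in livers, 7.36 to 11.57 in tumours and 5.66 to 6.37 in metastases, so hepatocyte transcripts were also present in the tumour pieces. Transcripts of the exocrine pancreas stood out in tumour day 15 replicate 2 (rat 5), tumour day 25 replicate 3 (rat 9) and metastasis replicate 2 (rat 8), with means of 9.09, 8.87 and 11.21 over 9 markers, and in 1 further tumour, of rat 2, at 6.75. The tumour of rat 7 had the lowest mean correlation with its own group (0.959), against up to 0.994 elsewhere. In such bulk pieces fewer cells of a type and less RNA per cell cannot be told apart.

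The members fall into 14 replication genes (licensing, fork and nucleotide supply), 3 G1 cyclins and 22 mitosis genes (the remaining lists). Their promoters, as RefSeq gives them on GRCr8, differ in short letter runs. Promoters of 300 bases, 250 before the transcription start and 50 after it, matched 32 of the 39 members, and Mcm4, Ccnd1, Ccne2, Ccna2, Foxm1, Ube2c and Aurkb were not matched. Both strands were searched for the core letters of the cell cycle homology region (CHR; TTTGAA or TTTAAA), for the CCAAT box (CCAAT) and for E2F words (TTTGGCGC, TTTCCCGC, TTTGGCGG or TTTCGCGC).

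The CHR letters were present in 18 of 18 mitosis promoters (100%) and in 1 of 13 replication promoters (7.69%, Mcm2), against 27.9% of all 27457 promoters and 19.8% of the 11734 promoters of genes on the array. CHR letters together with a CCAAT box were found in 14 of 18 mitosis promoters (77.8%) and in 11.1% of all promoters. At least 2 CCAAT boxes were found in 61.1% of mitosis promoters, 38.5% of replication promoters and 11.5% of all promoters. An E2F word was present in 9 of 13 replication promoters (69.2%), in 1 of 18 mitosis promoters (5.56%, Cdk1) and in 2.31% of all promoters. The only G1 cyclin promoter matched, that of Ccne1, held CHR letters and no E2F word. The median GC content was 57.8% in mitosis promoters, 58.3% in replication promoters and 60% in the promoters of genes on the array. A match is a run of letters and not a measured binding site.

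**Figure D1:**
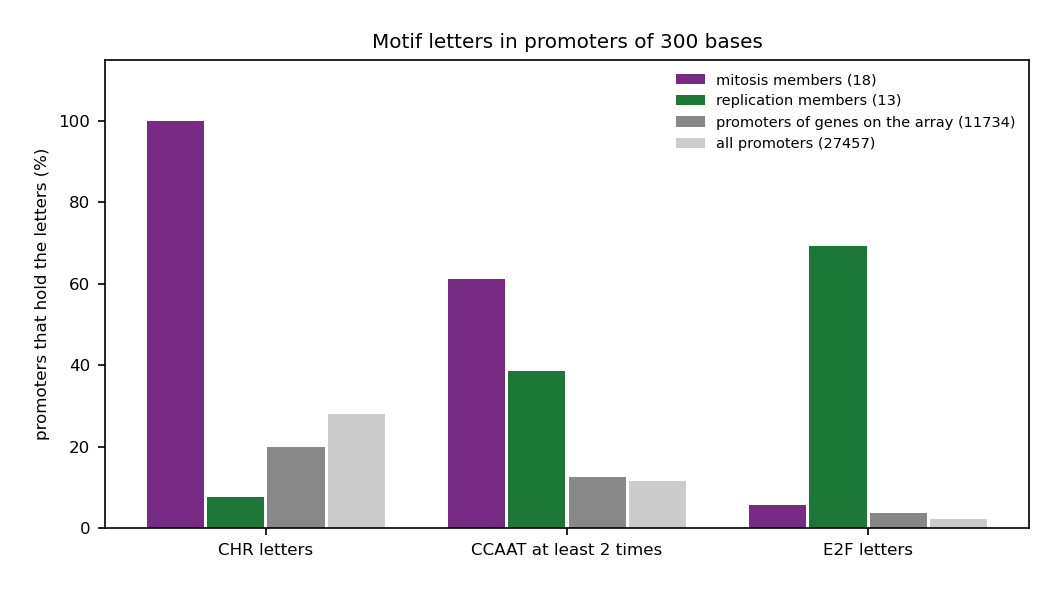
Share of promoters of 300 bases (y axis, percent) that hold CHR letters, at least 2 CCAAT boxes or an E2F word (x axis), for 18 mitosis members, 13 replication members, 11734 promoters of genes on the array and all 27457 promoters. The mitosis bar is at 100% for CHR letters and the replication bar at 69.2% for E2F words.

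The following mitosis promoters are shown because they carry CHR letters and CCAAT boxes close together, read toward the gene and ending at the last base before its start, with CHR letters, CCAAT boxes of either strand and E2F words in capitals. They encode cyclin B1 (Ccnb1, chr2:33655226-33655325, minus strand), its kinase partner Cdk1 (chr20:19265153-19265292, plus strand), the mitotic kinase Plk1 (chr1:186147538-186147657, plus strand), the spindle protein Nusap1 (chr3:127057215-127057294, plus strand) and the proliferation marker Ki-67 (Mki67, chr1:199952594-199952793, minus strand).
Ccnb1: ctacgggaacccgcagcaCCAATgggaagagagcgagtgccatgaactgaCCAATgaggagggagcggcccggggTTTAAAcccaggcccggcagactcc
Cdk1: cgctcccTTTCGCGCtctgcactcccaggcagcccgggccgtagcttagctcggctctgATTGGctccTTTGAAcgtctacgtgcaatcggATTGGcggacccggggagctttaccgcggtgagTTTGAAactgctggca
Plk1: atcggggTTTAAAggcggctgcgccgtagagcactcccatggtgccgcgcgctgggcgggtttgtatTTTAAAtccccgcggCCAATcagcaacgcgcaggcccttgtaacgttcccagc
Nusap1: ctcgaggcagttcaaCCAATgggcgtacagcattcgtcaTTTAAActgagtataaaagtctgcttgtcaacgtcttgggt
Mki67: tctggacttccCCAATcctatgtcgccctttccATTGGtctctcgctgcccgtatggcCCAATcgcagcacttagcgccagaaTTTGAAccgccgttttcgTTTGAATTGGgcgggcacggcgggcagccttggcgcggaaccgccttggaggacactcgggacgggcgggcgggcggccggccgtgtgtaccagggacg
In Ccnb1 the CHR letters began 25 bases before the start and the CCAAT boxes 50 and 82 bases before it. Cdk1 was the mitosis promoter with an E2F word, which began 133 bases before the start.

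The replication promoters shown next carry E2F words. They belong to the helicase subunits Mcm6 (chr13:42404353-42404502, minus strand), Mcm7 (chr12:22163179-22163278, minus strand) and Mcm2 (chr4:122918095-122918144, minus strand) and to the fork protein Gins1 (chr3:160184870-160184919, plus strand).
Mcm6: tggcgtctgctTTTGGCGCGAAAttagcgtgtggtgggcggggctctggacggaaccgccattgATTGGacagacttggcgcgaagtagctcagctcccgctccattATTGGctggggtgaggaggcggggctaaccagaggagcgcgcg
Mcm7: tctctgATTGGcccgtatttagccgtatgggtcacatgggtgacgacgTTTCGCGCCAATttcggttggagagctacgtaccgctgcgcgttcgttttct
Mcm2: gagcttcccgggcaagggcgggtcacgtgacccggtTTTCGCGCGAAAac
Gins1: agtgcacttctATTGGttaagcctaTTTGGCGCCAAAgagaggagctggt
In Mcm6, Mcm2 and Gins1 the capitals of an E2F word read on the gene strand overlap those of a word on the other strand, and in Mcm7 they overlap a CCAAT box.

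Over the 3 days all 39 members were higher in tumour than in liver at an adjusted p below 0.05 (limma, Benjamini-Hochberg adjusted over 14218 genes), and none was lower. Of all genes 36.8% were called higher in this comparison and 74.6% in either direction, so a call by itself is common here. The median difference of the members was 1.63, with a range of 0.43 to 3.04, and that of all genes was -0.03. For 30 of the 39 members the lowest of 9 tumours lay above the highest of 9 livers, which held for 19.7% of all genes. The 9 that overlapped were Tyms, Tk1, Ccne1, Ccnb1, Ccnb2, Foxm1, Cdc20, Aurka and Kif20a. The 39 calls held in each alternative run.

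**Figure D2:**
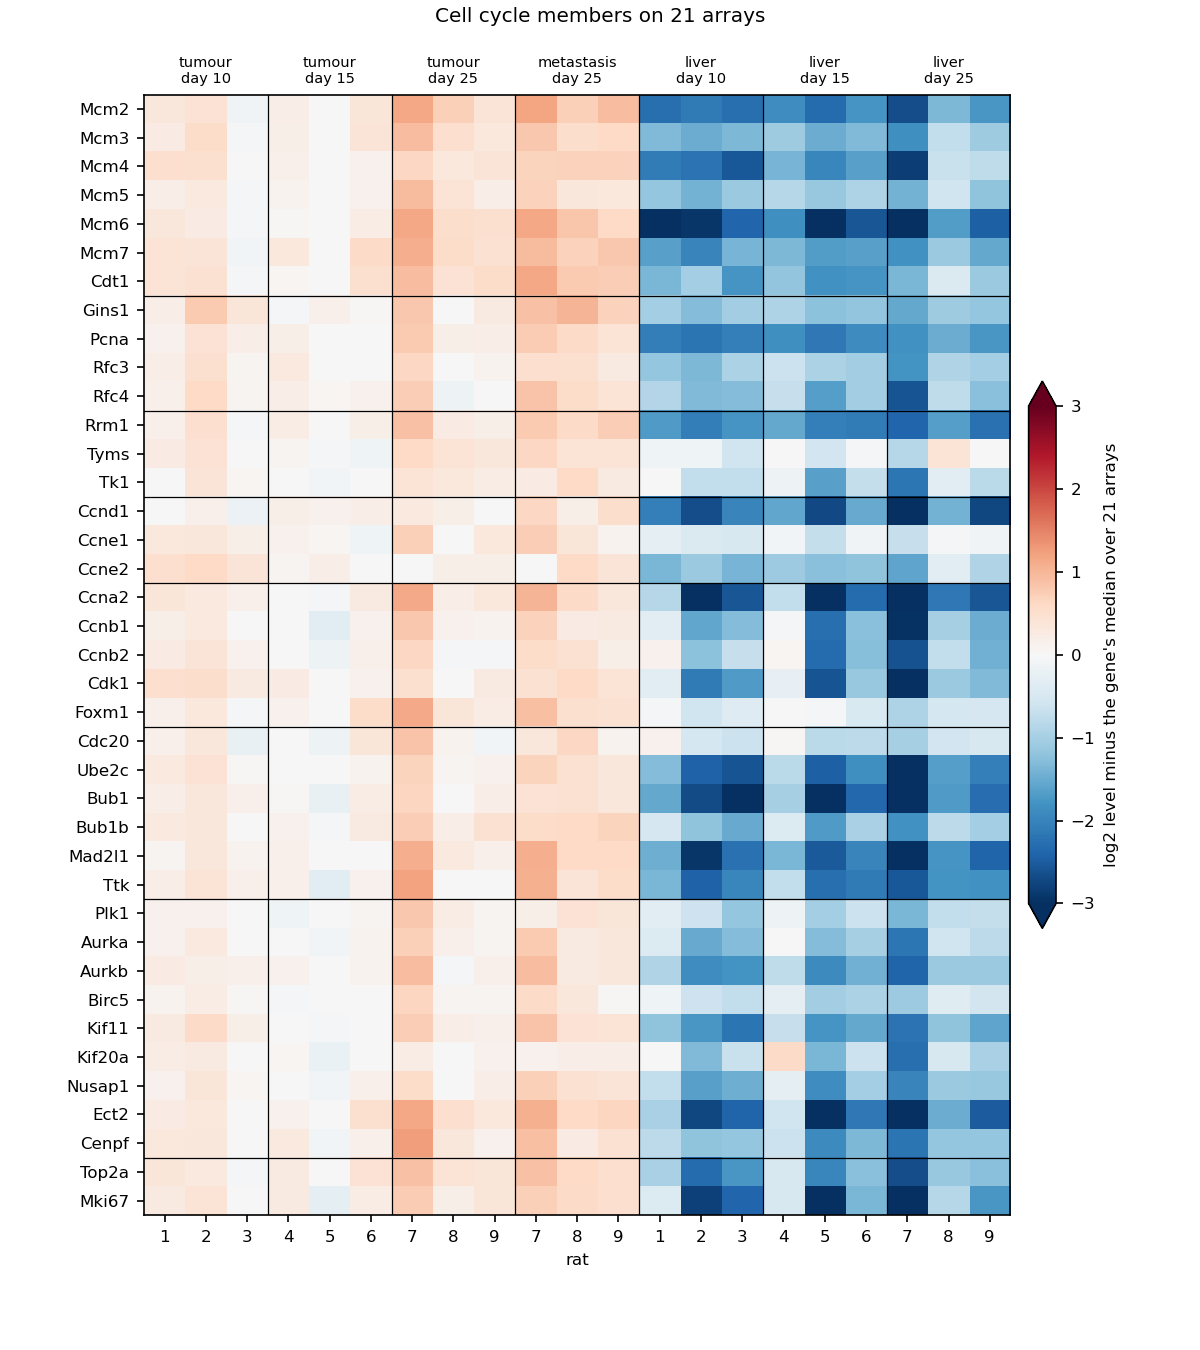
Level of each of the 39 members on each of the 21 arrays as the log2 level minus the gene's median over all arrays (colour, from -3 in blue to 3 in red), with arrays in columns by tissue, day and rat and genes in rows by role. Tumours and metastases are even in colour, whereas the livers of rats 1 and 4 are pale and that of rat 7 is dark blue in the mitosis rows.

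All 7 licensing genes were higher in tumour (median difference 1.97). Mcm6, a subunit of the replicative helicase whose promoter is shown above, had tumour levels of 9.05, 8.97 and 8.67 at day 10, 8.76, 8.72 and 8.95 at day 15, and 9.87, 9.24 and 9.19 at day 25. Its liver levels were 5.74, 5.81 and 6.35, then 6.87, 5.24 and 6.15, and at day 25 4.56, 7.04 and 6.26. Every tumour was thus more than 1 log2 unit above every liver, and the difference of 3.04 (SE 0.27, 8.24-fold, adjusted p = 3.6e-08) was the largest of the 39. Mcm2, of the same helicase, ranged from 8.60 to 9.87 in tumours (median 9.08) and from 6.04 to 7.36 in livers (median 6.60), a difference of 2.43 (SE 0.16, adjusted p = 8.4e-10). Mcm5 had the smallest difference of the group, 1.34 (SE 0.11, adjusted p = 2.2e-08), with tumours at 7.86 to 8.85 (median 8.09) and livers at 6.48 to 7.29 (median 6.75). Mcm4, Mcm7, Cdt1 and Mcm3 lay between at 2.08, 1.97, 1.68 and 1.63.

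At the replication fork all 4 genes were higher in tumour. Pcna, the clamp that holds DNA polymerase on its template, had tumour levels of 11.20, 11.49 and 11.26 at day 10, 11.23, 11.06 and 11.06 at day 15, and 11.84, 11.24 and 11.26 at day 25. Its livers were at 8.98, 8.87 and 9.01, then 9.21, 8.92 and 9.17, and 9.24, 9.56 and 9.32. Both tissues were tight and far apart (2.15, SE 0.09, 4.45-fold, adjusted p = 2.2e-12 by limma). This SE was the smallest of the members. Rfc4 and Rfc3, subunits of the factor that loads this clamp, differed by 1.48 (SE 0.21, adjusted p = 6.9e-06; tumours 7.55 to 8.45, median 7.85, livers 5.13 to 7.01, median 6.45) and by 1.29 (SE 0.12, adjusted p = 6.9e-08; tumours 7.13 to 7.76, median 7.25, livers 5.34 to 6.5, median 6.12). Gins1, part of the helicase complex at the fork, differed by 1.45 (SE 0.11, adjusted p = 5.2e-09), with tumours at 6.00 to 6.85 (median 6.24) and livers at 4.49 to 5.10 (median 4.88). Its liver level lay under the lowest array median, as did those of Cdt1, Ccne2, Bub1, Bub1b, Ttk and Kif11. Low signal may limit the size of these 7 differences, which was not tested.

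The nucleotide supply genes were less even. Rrm1, the large subunit of ribonucleotide reductase, was at 8.32 to 9.25 in tumours (median 8.55) and 6.00 to 6.83 in livers (median 6.32), a difference of 2.20 (SE 0.12, adjusted p = 1.4e-10). Tk1, thymidine kinase, differed by 0.95 (SE 0.22, adjusted p = 0.0009), with tumours at 7.90 to 8.40 (median 8.06) and livers at 5.83 to 7.99 (median 7.25), so that the highest livers reached the tumour range. Tyms, thymidylate synthase, had the smallest difference of all members at 0.43 (SE 0.14, adjusted p = 0.011), and its tumours at 6.20 to 6.93 (median 6.59) overlapped its livers at 5.49 to 6.74 (median 6.22). The other probe sets of Tk1 gave 0.27 and -0.06, and with the mean of its probe sets Tk1 differed by 0.39. These other probe sets averaged 7.74 and 5.63 over the 21 arrays, beside 7.76 for the one used.

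Among G1 cyclins, Ccnd1 (cyclin D1) stood highest in the tumours relative to liver. Its tumour levels were 11.29, 11.43 and 11.11 at day 10, 11.46, 11.41 and 11.49 at day 15, and 11.58, 11.45 and 11.28 at day 25, against livers of 9.23, 8.63 and 9.29, then 9.73, 8.57 and 9.76, and 7.90, 9.86 and 8.55. The tumours spanned under 1 log2 unit and the livers nearly 2, and the difference was 2.33 (SE 0.22, 5.03-fold, adjusted p = 5.8e-08). Ccne2 differed by 1.38 (SE 0.13, adjusted p = 4.7e-08; tumours 6.27 to 6.87, median 6.46, livers 4.70 to 5.97, median 5.07), but its other probe set gave -0.30 and the mean of both 0.54. This other probe set of Ccne2 averaged 4.39 over the 21 arrays and the one used 5.94, both under the lowest array median. Ccne1 differed by 0.55 (SE 0.12, adjusted p = 0.00071), with tumours at 6.96 to 7.80 (median 7.26) and livers at 6.36 to 7.03 (median 6.78). The E-type cyclins, partners of Cdk2 at the start of S phase, had these smaller values beside that of cyclin D1, and the differences were not tested against each other.

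All 5 genes of S, G2 and M phase control were higher in tumour (0.69 to 2.84). Ccna2, cyclin A2, had tumour levels of 9.37, 9.30 and 9.16 at day 10, 9.00, 8.93 and 9.27 at day 15, and 10.14, 9.20 and 9.31 at day 25. In liver it was at 8.15, 5.90 and 6.43, then 8.27, 5.24 and 6.68, and 4.17, 6.86 and 6.43, with the livers of rats 1 and 4 far above the rest and that of rat 7 far below. The difference was 2.84 (SE 0.41, 7.15-fold, adjusted p = 1e-05), and its SE was larger than that of Pcna. Cdk1 differed by 1.87 (SE 0.36, adjusted p = 0.00018), with tumours at 8.99 to 9.53 (median 9.26) and livers at 5.13 to 8.76 (median 7.68). Foxm1, the transcription factor, was at 6.60 to 7.80 in tumours (median 6.89) and 5.75 to 6.67 in livers (median 6.21), a difference of 0.69 (SE 0.13, adjusted p = 0.00018) that was 0.10 by its other probe set and 0.40 by the mean of both. The other probe set of Foxm1 averaged 4.06 over the 21 arrays, under the lowest array median.

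The spindle checkpoint holds chromosome separation until each kinetochore is attached, and the anaphase promoting complex with Cdc20 and Ube2c then starts it. All 6 members of this group were higher in tumour (median 2.17). Bub1, a checkpoint kinase, was at 7.75 to 8.63 in tumours (median 8.17) and 4.04 to 6.99 in livers (median 5.62), a difference of 2.62 (SE 0.32, adjusted p = 1.4e-06). Mad2l1, the checkpoint inhibitor of Cdc20, differed by 2.48 (SE 0.23, adjusted p = 6.9e-08; tumours 8.29 to 9.38, median 8.44, livers 4.84 to 6.91, median 6.06). Cdc20 itself differed by 0.67 (SE 0.16, adjusted p = 0.0015), with tumours of 8.12, 8.30 and 7.75, then 7.97, 7.82 and 8.33, and 8.82, 8.07 and 7.89, and livers of 8.11, 7.44 and 7.32, then 8.01, 7.16 and 7.19, and 6.98, 7.39 and 7.48. The livers of rats 1 and 4 lay inside its tumour range. Its other probe sets gave 0.97, 0.13, -0.01 and -0.05, and the mean of all 5 was 0.34. The probe set at 0.97 averaged 7.67 over the 21 arrays, beside 7.86 for the one used. The rest averaged 5.31, 4.82 and 4.53, under the lowest array median, so the size for Cdc20 depends on whether such low probe sets are counted. Ttk, a checkpoint kinase, differed by 2.11 and by 1.33 with the mean of its probe sets. Its other probe set averaged 5.03 over the 21 arrays, under the lowest array median. The other probe sets of Mad2l1 gave 1.35 and 1.85, and the mean of its probe sets 1.89.

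All 9 spindle, kinetochore and cytokinesis genes were higher in tumour (0.76 to 2.62). Ect2, which starts the contractile ring of cytokinesis, was at 8.76 to 9.93 in tumours (median 9.08) and 4.85 to 8.18 in livers (median 6.36), a difference of 2.62 (SE 0.37, adjusted p = 8.9e-06). The spindle motor Kif11 differed by 1.80 (SE 0.17, adjusted p = 7.1e-08; tumours 7.49 to 8.28, median 7.71, livers 5.32 to 6.84, median 5.95). Birc5, survivin, had the smallest value, 0.76 (SE 0.13, adjusted p = 6.1e-05), with tumours at 7.57 to 8.29 (median 7.72) and livers at 6.56 to 7.51 (median 7.03). The other members were Aurkb at 1.68, Cenpf at 1.59, Nusap1 at 1.40, Aurka at 1.17, Plk1 at 0.90 and Kif20a at 0.87. The other probe set of Kif11 gave 0.82 and the mean of both 1.31, whereas that of Nusap1 gave 1.46.

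The chromosome genes were Top2a, the topoisomerase that untangles sister chromatids, and Mki67. Top2a was at 9.05 to 9.97 in tumours (median 9.45) and 6.42 to 8.62 in livers (median 7.84), a difference of 1.86 (SE 0.23, adjusted p = 2e-06). Mki67 had tumour levels of 8.43, 8.57 and 8.16 at day 10, 8.44, 7.87 and 8.38 at day 15, and 8.91, 8.34 and 8.53 at day 25. In liver it was at 7.76, 5.37 and 5.77, then 7.67, 4.52 and 6.78, and 4.26, 7.31 and 6.41. Every tumour was above every liver, the livers spread over more than 3 log2 units, and the difference was 2.20 (SE 0.44, 4.59-fold, adjusted p = 0.00025).

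**Figure D3:**
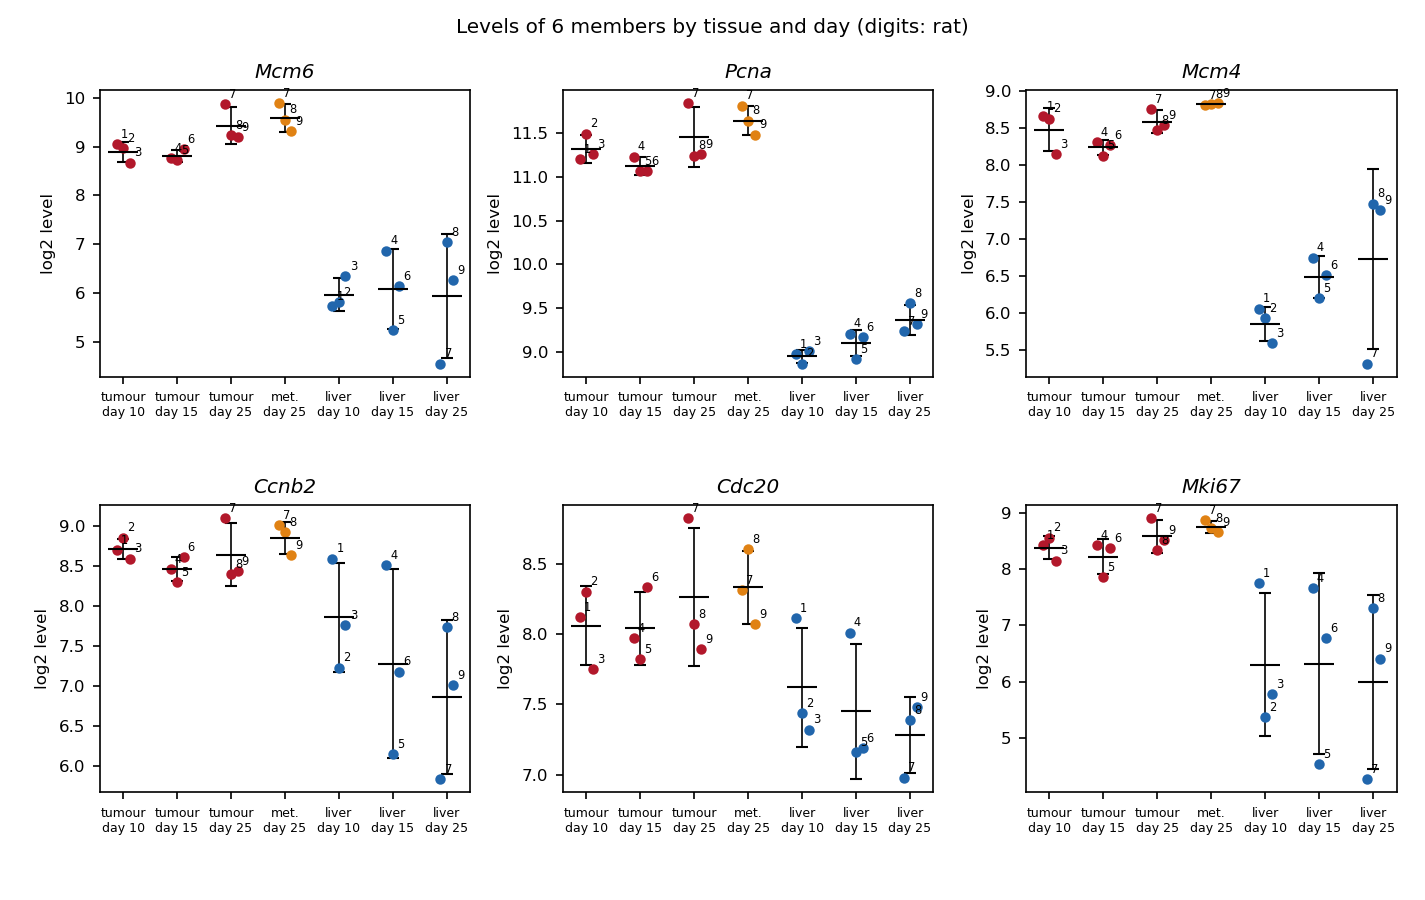
Log2 level (y axis) of Mcm6, Pcna, Mcm4, Ccnb2, Cdc20 and Mki67 by tissue and day (x axis), 1 point per array with the digit of the rat, and the mean with 1 SD either way of 3 arrays. Tumours and metastases lie close together, and the livers of rats 1 and 4 are high and that of rat 7 low for Ccnb2 and Mki67.

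By day, 33 members were called higher in tumour at day 10 (30.4% of all genes), 29 at day 15 (28.2%) and 39 at day 25 (27.7%), and none was called lower on any day. The median differences were 1.67, 1.42 and 1.86, and 29 members were called higher at each of the 3 days (21.3% of all genes). Uncalled at day 10 were Ccnb2 (0.85), Cdc20 (0.43), Foxm1 (0.47), Kif20a (0.83), Tk1 (0.65) and Tyms (0.51). At day 15 the same 6 and Aurka, Ccnb1, Ccne1 and Cdk1 were uncalled, with differences of 0.18 for Tyms to 1.45 for Cdk1. With the rat as a block Birc5 (adjusted p = 0.05) and Ccnb1 (0.055) were uncalled at day 10, Plk1 (0.069) at day 15 and Tyms (0.061) at day 25. Leaving out liver day 15 replicate 1, of rat 4, gave 35 calls at day 15 and a median of 1.75. Leaving out rat 7 gave 29 calls at day 25 and a median of 1.27, and the calls of Aurka, Birc5, Ccnb2, Ccne1, Cdc20, Cdk1, Kif20a, Mki67, Tk1 and Tyms ended.

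The livers were the less even tissue. Across 9 livers the median SD of a member was 0.54, against 0.27 across 9 tumours, whereas for all genes the medians were 0.19 and 0.17. The 22 mitosis genes varied more (median SD 0.66) than the 14 replication genes (0.36) in liver, and in tumours the values were 0.27 and 0.29. The mean over the mitosis genes in the livers of rats 1 to 9 was 7.31, 6.18, 6.34, 7.55, 5.89, 6.60, 5.36, 6.87 and 6.56. Rats 4 and 1 stood highest and rat 7 lowest, and the 3 were sampled on 3 different days. The mean over the replication genes was 6.62, 6.45, 6.52, 6.94, 6.32, 6.64, 5.95, 7.15 and 6.75, with rat 8 highest and rat 7 lowest. All 22 mitosis genes were lowest in the liver of rat 7, 18 were highest in that of rat 4 and 4 in that of rat 1. Of the replication genes 11 of 14 were lowest in the liver of rat 7, and 9 were highest in that of rat 8, 4 in that of rat 4 and 1 in that of rat 1.

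The B-type cyclin gene Ccnb2 shows the spread, with livers at 8.59, 7.23 and 7.76, then 8.51, 6.15 and 7.18, and 5.84, 7.73 and 7.01, and tumours from 8.30 to 9.09. The livers of rats 1 and 4 lay within the tumour range. Kif20a, a cytokinesis motor, was higher in the liver of rat 4 (7.79) than in any of the 9 tumours, of which the highest was at 7.48. Mitosis genes outside the 42 symbols had the same extremes by array. Over 37 such genes, from Kif23 to Cenpa, the liver means ran from 5.81 in rat 7 to 7.03 in rat 4, with rat 1 next at 6.78. Of these 37 genes 27 were highest in the liver of rat 4 and 22 were lowest in that of rat 7. Over 32 further replication genes the liver means ran from 6.32 in rat 7 to 6.91 in rat 4, with rat 8 at 6.89.

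Some marker lists also differed between livers. The mean of 6 neutrophil markers was 5.65 to 7.31 in the livers of days 10 and 15 and 8.70, 8.94 and 8.31 in those of rats 7, 8 and 9, while the biliary list was 7.72 in the liver of rat 7 and 5.54 to 6.93 in the others. The hepatocyte list was 12.62 in the liver of rat 1, 12.20 in that of rat 4 and 12.38 in that of rat 7, within the range of the others (12.04 to 12.83). The myofibroblast list was at 6.81 to 8.49 in livers, the macrophage list at 8.95 to 9.96 (highest in rat 7), the T and NK cell list at 5.25 to 5.63, the B and plasma cell list at 5.38 to 5.90 and the endothelium list at 7.34 to 7.96. Their part in the levels of the cell cycle genes was not tested.

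**Figure D4:**
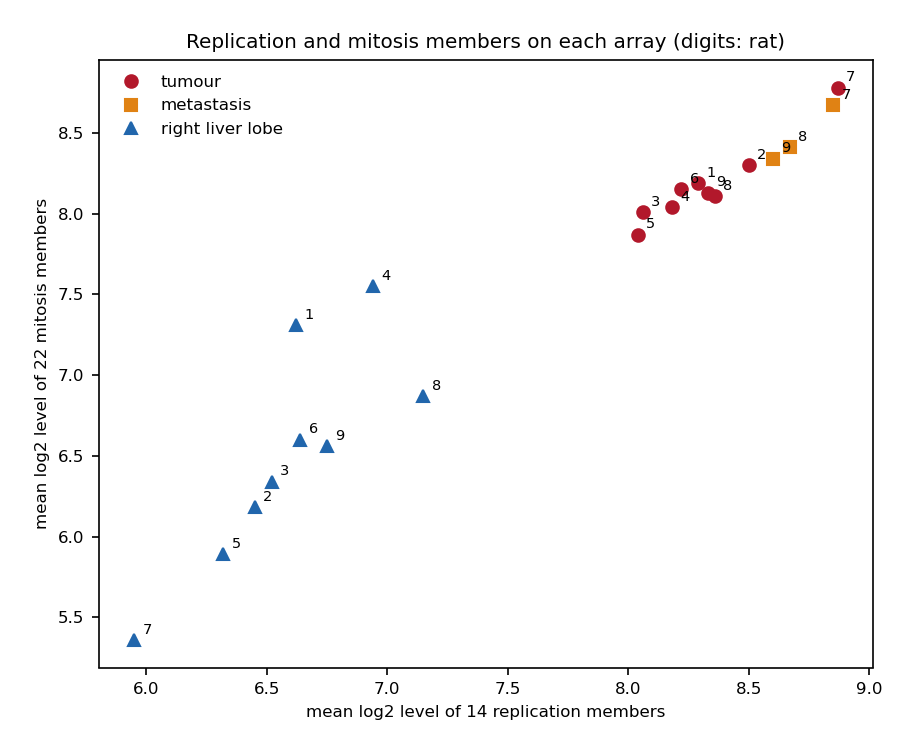
Mean log2 level of the 22 mitosis members (y axis) against that of the 14 replication members (x axis) on each array, with tumours as circles, metastases as squares, livers as triangles and the rat as a digit. The livers of rats 1 and 4, at 7.31 and 7.55, lie above the other livers on the y axis, and the liver of rat 8 is farthest right among livers at 7.15.

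Between liver days no member was called by limma. From day 10 to day 25 the lowest adjusted p was 0.086, 9.1% of all genes were called, and the member median was -0.14. At an unadjusted p below 0.05 there were 2 members, against 24.9% of all genes. From day 10 to 15 and from 15 to 25, where 0.0281% and 2.2% of all genes were called, the medians were 0.10 and -0.33. There 0 and 1 members had an unadjusted p below 0.05, against 10.1% and 15.3% of all genes. Single livers turned the sign of each median. From day 10 to 15 it was -0.15 without liver day 15 replicate 1 (rat 4) and -0.01 without liver day 10 replicate 2 (rat 2). From day 15 to 25 it was 0.11 without liver day 15 replicate 1 and 0.09 without rat 7. From day 10 to 25 it was 0.13 without liver day 10 replicate 1 (rat 1) and 0.17 without rat 7, when 3 members were called higher. They were Mcm4 (1.57, adjusted p = 0.00031), Ccne2 (0.69, adjusted p = 0.014) and Pcna (0.49, adjusted p = 0.022), against 0.87, 0.36 and 0.42 with all arrays. The share of all genes called without rat 7 was not counted, so these calls cannot be set against that of all genes. The other probe set of Ccne2, which averaged 4.39 over the 21 arrays, gave -0.02 with all arrays. Without liver day 25 replicate 1 alone, Mcm4 and Ccne2 were called. Mcm4 was at 6.06, 5.93 and 5.60 in the day 10 livers, 6.75, 6.20 and 6.51 at day 15, and 5.32, 7.48 and 7.39 at day 25. Rats 8 and 9 were thus the highest livers for this gene and rat 7 the lowest. Pcna was the only member whose day 25 livers all lay above its day 10 livers, and none had them all below (15.1% and 15.3% of all genes).

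Within each rat the tumour could be set against its own liver. The median tumour-liver difference of the 39 members in rats 1 to 9 was 1.22, 2.04, 1.52, 0.80, 1.81, 1.51, 2.96, 1.08 and 1.42. It was above 0 for every member in 7 rats, for 37 members in rat 6 and for 36 in rat 4, while 47.3% to 52.7% of all genes were above 0. Rat 4 had the smallest median over all members and over mitosis genes (0.62), and its lowest member was Kif20a at -0.53. For replication genes rat 8 was lowest (1.03), with rat 4 next at 1.25. Rat 1 followed rat 4 for mitosis genes (0.85, against 1.68 for replication genes). Rat 7 had the largest, with 3.39 for mitosis and 2.69 for replication genes and 5.98 for Ccna2, where the highest tumour and the lowest liver of the series came from the same animal. Its tumour was the highest of 9 for 36 of 39 members, and its mean over the members was 8.80 against 7.97 to 8.39 in the others. In the same tumour the hepatocyte list was at 7.36 (9.20 to 11.57 in the others), the myofibroblast list at 10.78 (11.64 to 12.16) and the endothelium list at 6.71 (7.79 to 8.30), and the part of these in its levels was not tested.

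**Figure D5:**
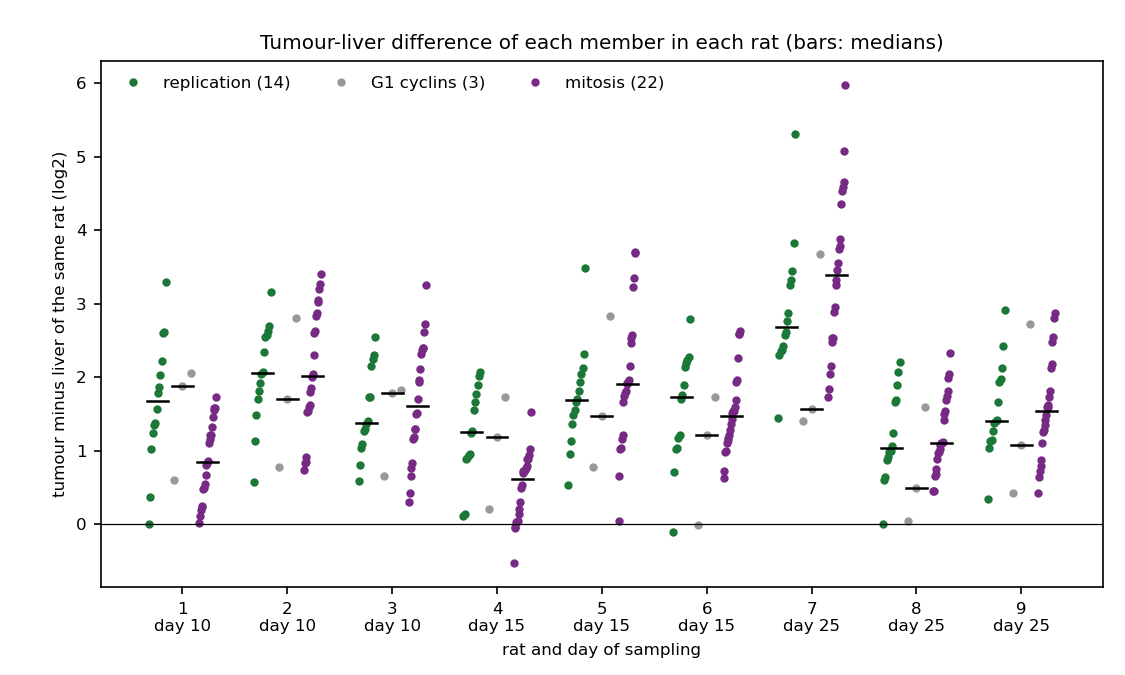
Difference in log2 level between the tumour and the liver of the same rat (y axis) for each of the 39 members, by rat and day (x axis), with replication genes, G1 cyclins and mitosis genes in separate columns and a bar at each median. The mitosis medians run from 0.62 in rat 4 to 3.39 in rat 7, and the replication medians from 1.03 in rat 8 to 2.69 in rat 7.

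Between tumour days no member was called by limma. From day 10 to day 25 the median difference was 0.18, 32 members were above 0 and 7 below (50.9% of all genes were above 0), the lowest adjusted p was 0.28, and 8 genes of the whole table were called (0.0563%). Without rat 7, or without its tumour alone, the median was -0.02 and 19 members were above 0. The number at an unadjusted p below 0.05 was 1, against 17.2% of all genes. Each test used 1 spread per gene pooled over the 7 groups. The members spread more across livers (median SD 0.54) than across tumours (0.27). A share of members under that of all genes therefore does not show that the members were steadier between tumour days. From day 10 to 15 the median was -0.14 and from 15 to 25 it was 0.34, and no gene of the table was called in either. With no adjustment 1 and 2 members had p below 0.05, against 2.46% and 8.45% of all genes. These medians were -0.07 without tumour day 10 replicate 2 (rat 2) and 0.14 without rat 7. Above 0 were 5 of the 39 members from day 10 to 15, or 10 without tumour day 10 replicate 2. From day 15 to 25 there were 38, or 33 without rat 7. These counts were not set against the share of all genes above 0. Mcm6 differed by 0.54 from day 10 to 25 and by 0.32 without rat 7. With all arrays, Mcm6, Mcm7 and Top2a had each day 25 tumour above each day 10 tumour (12.2% of all genes did). Ccne2 had each one below (15%), at 6.79, 6.87 and 6.67 at day 10 against 6.27, 6.46 and 6.46. The other probe set of Ccne2, which averaged 4.39 over the 21 arrays, changed by -0.01 in tumour and -0.02 in liver from day 10 to 25. Whether the gap between tumour and liver changed from day 10 to 25 was tested as an interaction, and no member was called (median 0.30, 1.46% of all genes called). The median was -0.31 without rat 7 and -0.10 without liver day 25 replicate 1 alone. Unadjusted, 2 members had p below 0.05, against 17.6% of all genes. The change was 1.28 for Ccna2, 1.07 for Ect2, -0.76 for Mcm4 and -0.74 for Ccne2. Without rat 7 it was called lower for Mcm4 (-1.55, adjusted p = 0.0085) and Ccne2 (-1.0, adjusted p = 0.033), and without liver day 25 replicate 1 for the same genes (-1.46, adjusted p = 0.012, and -1.07, adjusted p = 0.04). The share of all genes called in these runs was not counted.

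In the metastases the members were above liver, and none was called against the tumour. Against liver of day 25 all 39 were higher (33.4% of all genes), with a median of 2.09, and each of the 3 metastases lay above each of the 3 livers for all 39 (32.9% of all genes). Ccna2 was at 10.01, 9.57 and 9.35 (3.82, SE 0.71, adjusted p = 0.00024) and Mcm6 at 9.89, 9.55 and 9.31 (3.63, SE 0.47, adjusted p = 6.7e-06). Without rat 7 the median was 1.54, and Ccne1, Kif20a, Mki67 and Tyms were uncalled. Against the tumour of day 25 no member was called, with 48 genes called in all (0.338%). Unadjusted, 1 member had p below 0.05, against 6.07% of all genes. The pooled spread, which takes in the livers, limits this comparison as well. The median was 0.15 (0.06 for all genes; 0.06 without tumour day 25 replicate 2 and 0.35 without replicate 1), the differences ran from -0.07 to 0.50, and the lowest adjusted p was 0.65. The value nearest to a separation was that of Mcm4, at 8.81, 8.83 and 8.84 in metastases and 8.76, 8.47 and 8.54 in tumours, the only member with no overlap (7.01% of all genes). Gins1 differed by 0.50 and, without tumour day 25 replicate 2, by 0.32. Rat by rat, metastasis minus tumour had a median of -0.03 in rat 7, 0.31 in rat 8 and 0.20 in rat 9, with 14, 36 and 37 of 39 members above 0. All genes were above 0 in 55.7%, 59.1% and 63.2% of cases. The tumour and the metastasis of rat 7 correlated at 0.993 over all probe sets, against mean correlations of 0.959 and 0.967 with their own groups. In the metastases the hepatocyte list was 5.66 to 6.37 and in the tumours of the same rats 7.36 to 10.12, and its part in these differences was not tested.

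Other genes of the cycle were read from 7 lists with 126 of 144 genes measured, in tumour against liver over all days, where 36.8% of all genes were called higher and 37.8% lower. All 8 inhibitors of cyclin-dependent kinases, which restrain the cycle, were called higher, with a median of 0.81. Cdkn2a, which encodes p16 and Arf, led at 3.68 (SE 0.13, adjusted p = 7.1e-13), followed by Cdkn2d at 1.17 and Cdkn3, a phosphatase of cyclin-dependent kinases, at 1.09, whose call (adjusted p = 0.033) ended in 9 of 27 alternatives. Of 10 further genes of cyclins, kinases and phosphatases 9 were higher and 1 lower (median 0.70). Among them were cyclin D2 (Ccnd2) at 2.17, Mnat1 at 1.76, the D-cyclin partner Cdk4 at 1.72 and its relative Cdk6 at -0.19. Of 17 E2F, Rb and MuvB genes 11 were higher (64.7%) and 1 lower (median 0.58). The pocket protein genes went both ways, with Rbl1 higher at 2.40 and Rbl2 lower at -0.93. E2f5 was at 1.91, the MuvB gene Lin9 at 1.63 and E2f6 uncalled at 0.10.

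Of 32 further replication genes 27 were higher (84.4%, against 36.8% of all genes) and 1 lower (median 0.87), led by Uhrf1, which recruits maintenance methylation, at 3.39, the primase subunit Prim1 at 1.99 and the polymerase subunit Pole2 at 1.92. Rpa3 was uncalled at 0.35, and Rfc1 at -0.15 lost its lower call in 15 of 27 alternatives. Of 37 further mitosis genes 34 were higher (91.9%) and 1 lower (median 1.13), with the cytokinesis genes Kif23 at 3.45 and Racgap1 at 2.32 and the spindle motor Kif15 at 2.53; Zwint was lower at -0.41 and Cenpa uncalled at -0.13. Of 12 checkpoint and repair genes 11 were higher (91.7%) and none lower (median 0.78), with the helicase Blm at 2.10, the mismatch repair gene Msh6 at 1.73, the nuclease Exo1 at 1.41 and Brca1 uncalled at 0.18. Of 10 p53 target and growth arrest genes 3 were higher (30%) and 4 lower (40%), near the shares of all genes, with a median of -0.11. Ccng1 at 1.91, Gadd45b at 1.44 and Mdm2 at 1.37 were higher, Sesn1 at -1.22, Tob1 at -1.07, Sesn2 at -0.58 and Gas1 at -0.22 lower, and Btg1 was uncalled at 0.00. The genes called lower in these lists were named after their values were seen. Of the genes named from these lists, Cdk6, Cenpa, Brca1 and Gas1 lay above the median of all values (6.02) on fewer than 3 arrays. Their differences therefore rest on weak signal.

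Of the genes in these lists, chosen after their values were seen, the D-type cyclin gene Ccnd3 and the single-strand binding subunit Rpa1 differed between liver days. Ccnd3 was higher at day 25 than at day 10 by 1.16 (SE 0.25, adjusted p = 0.01), and by 0.74 without rat 7, and Rpa1 fell by 1.33 on the log2 scale (SE 0.27, adjusted p = 0.0065); both calls held in every alternative run. The neutrophil list was higher in the same livers, as given above, and its part in these differences was not tested.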

How the data were processed

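Affymetrix rat arrays were read in 21 tissue pieces of 9 rats. The deposited values are log2 levels from RMA, per the submitters' processing notes. The program that ran RMA: not given in the sources used here. No detection calls or batches were used. Of 31099 probe sets, 20832 name 1 gene symbol, 436 several and 9831 none here (57 are controls). Symbols were updated through Entrez gene IDs in the RefSeq table of GRCr8, and the probe set with the highest mean stood for each of 14218 genes.

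Means of the 7 groups were fitted with lmFit and eBayes (limma 3.58.1, R 4.3.3, 14 residual degrees of freedom), with Benjamini-Hochberg adjustment over all genes in each of 13 comparisons and a threshold of 0.05. The fits were tested on simulated data. No filter on low values was used. Tissues of a rat come from the same animal by the labels; deviations from the group means of the same rat correlated at 0.04 to 0.3 between tumour and liver, at 0.05 to 0.16 between metastasis and liver, and at 0.58, 0.11 and 0.04 between metastasis and tumour.

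Values on all arrays or ranges with full statistics were given, in each role list, to the 2 members with the largest and the 1 with the smallest difference of tumour and liver (all members of lists of up to 4). From each of 7 companion lists the 3 called genes with the largest difference and the uncalled gene with the highest mean were named. Members, lists and 9 marker lists were chosen with earlier results of these data known. Alternatives were median centring, quantile normalization, the mean of all probe sets, the probe set with the largest SD, a low-value filter, an intensity trend, the rat as a block, and leaving out rat 7, the 3 arrays with pancreas transcripts or each array.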

Additional observations from a re-analysis of the deposited data

How the results depend on the processing

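Counts of members called higher or lower were within 1.5 times the reported count in 420 of 426 settings, and in the other 6 a count of 0 became 1, 2 or 3. Most of the 420 were counts of 0 that stayed 0, so this tally says little about stability. The tolerance also passes the loss of 10 of 39 calls in tumour against liver at day 25 without rat 7. From liver day 15 to 25, 1 member was called higher without rat 7 and 1 without liver day 25 replicate 1 (Mcm4, 0.95, adjusted p = 0.015 in both, by limma). From liver day 10 to 25, 3 were called higher without rat 7 and 2 without liver day 25 replicate 1. In the interaction of tissue and day, 2 were called lower without rat 7 and 2 without liver day 25 replicate 1. The cause was not tested, and the share of all genes called in these runs was not counted. With a single array left out, members called higher in tumour numbered 28 to 35 at day 10, 24 to 35 at day 15, 35 to 39 at day 25 and 39 over all days, and 36 to 39 in metastasis against liver.

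Over the 39 members, 13 comparisons and all alternatives there were 8307 values, of which 7810 kept their direction and side of the threshold, 84 lost a call, 27 gained one and 386 changed sign. No value that changed sign was called in the reported fit or under the alternative, and 384 of the 386 were between days, between metastasis and tumour or in the interaction. Examples are uncalled liver differences not given above. Mcm4 from liver day 15 to 25 (0.24) was -0.13 and -0.09 without replicates 2 and 3 of liver day 25. Cdk1 from liver day 10 to 25 (-0.72) was 0.16 without rat 7 and -1.21 to 0.16 with 1 array left out. Medians of the members kept their sign against liver and turned in 12 of 213 settings, all of them without rat 7 or 1 array. Without rat 7 they were -0.02 for tumour day 10 to 25, 0.09 for liver day 15 to 25, 0.17 for liver day 10 to 25 and -0.31 for the interaction. With 1 array left out they were -0.02 to 0.30, -0.54 to 0.11, -0.35 to 0.17 and -0.10 to 0.60 for these, and -0.15 to 0.38 for liver day 10 to 15. With the rat as a block 39 members were called higher over all days, 31 at day 10, 28 at day 15, 38 at day 25 and 39 in metastasis against liver, and the block ended no other call than those given above. In the companion lists Rfc1 was uncalled with the rat as a block (adjusted p = 0.073).

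Signal near the bottom of the scale limits the fold of members that are low in liver.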
